A study of Caenorhabditis elegans with 4 samples.

Results

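Gene expression was compared between whole early adult Caenorhabditis elegans of strain GG14, whose genotype fasn-1(g14) affects the gene for fatty acid synthase, and the wild-type strain N2 (Bristol). The genes described here are 10 cuticle collagens named for the body shape or blister phenotypes of their mutants: dpy-4, dpy-5, dpy-13, dpy-17, sqt-1, sqt-3, rol-6, lon-3, bli-1 and bli-2. They were chosen by name, with earlier results of these data known. Their rows were found through the sequence names in the WBcel235 annotation, and all 10 were present among the 13758 rows of the deposited table. Both groups had been held without food for 8 days at 20 °C from the egg, which keeps hatchlings in L1 arrest, and were then fed HT115 bacteria with an empty vector, carbenicillin at 25 µg/ml and 1 mM IPTG for about 68 hours, until eggs were seen. Each group had 2 biological replicates, which carry the numbers 3 and 4. Every animal compared here had thus been starved, and the mutant is 1 allele in 1 strain.

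The cuticle of C. elegans is an outer coat built mainly of collagens, which the epidermis secretes anew at each molt. Single collagens have their own places in it: some form the bands of the annular furrows, others lie in the annuli between the furrows, and others build the struts that join the cortical and basal layers of the adult cuticle. Loss of a Dpy collagen leaves a short, stout worm, altered Sqt and Rol collagens twist the body so that the animal rolls, loss of LON-3 gives a longer animal, and loss of a strut collagen lets the cuticle fill with fluid as a blister. The furrow collagens are a separate set and appear below only for comparison.

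The values are a normalized signal in CPM, reads scaled by a factor for each library. The columns summed to 989581 and 1028879 CPM in mutant replicates 3 and 4. They summed to 943913 and 941734 CPM in wild-type replicates 3 and 4, so the factor was not the reads of each column alone. Reads recovered from the steps of the CPM values came to 14643426 and 15889424 in mutant replicates 3 and 4. In wild-type replicates 3 and 4 they came to 15023519 and 13960509, so that 1 read was worth 0.0628 to 0.0676 CPM. The fasn-1 transcript itself stood at 353 and 285 CPM in the mutant, against 369 and 410 CPM in wild type, a difference short of the threshold (limma, adjusted p = 0.12), and its level therefore gives no check of the genotype labels. The spread between replicates was wider in the mutant, with a chi-square of 13.3 times its degrees of freedom between the mutant libraries and of 4.58 times between the wild-type libraries.

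The 10 genes are scattered over chromosomes I to V (WBcel235). The 4 on chromosome II are bli-2 (F59E12.12, 5651394 to 5652434, minus strand), rol-6 (T01B7.7, 8733050 to 8734239, plus strand), bli-1 (C09G5.6, 10708960 to 10712156, plus strand) and sqt-1 (B0491.2, 11336693 to 11337837, minus strand). The other 6 are dpy-5 on I (F27C1.8, 5432197 to 5433051, minus strand), dpy-17 on III (F54D8.1, 5107330 to 5108492, plus strand), dpy-13 on IV (F30B5.1, 4235614 to 4236710, plus strand), dpy-4 on IV (Y41E3.2, 14985543 to 14986784, minus strand), lon-3 on V (ZK836.1, 12197437 to 12198645, minus strand) and sqt-3 on V (F23H12.4, 12352745 to 12354320, plus strand). Most are short genes, with 852 to 1056 coding bases in 1 to 3 exons. The exception is bli-1, with 2844 coding bases in 5 exons.

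Of the 10, 4 lie wholly inside a larger gene on the opposite strand: dpy-4 inside atln-2, lon-3 inside ogdh-2, bli-1 inside dph-2 and bli-2 inside zyg-1. Their exons do not overlap those of the surrounding gene, apart from 7 bases of bli-1. The library kit does not mark the strand, so a read from an unspliced transcript of the surrounding gene cannot be told apart from a read of the collagen. The surrounding genes averaged 2.36 CPM in the mutant and 10.0 CPM in wild type for atln-2, 138 and 139 CPM for ogdh-2, 32.8 and 33.7 CPM for dph-2, and 94.8 and 85.3 CPM for zyg-1. Of these, atln-2 fell (limma, adjusted p = 0.0122) and the others did not pass. The part of such reads in the collagen values was not tested. A noncoding gene on the other strand, F23H12.13, overlaps the exons of sqt-3 by 144 bases and was not analysed here.

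The most abundant members, dpy-17 and sqt-3, were the ones that fell in the mutant. SQT-3 and DPY-17 are known to act together: DPY-17 is needed for the secretion of SQT-3, the astacin protease DPY-31 cleaves the carboxyl end of SQT-3, and SQT-3 helps to hold the elongated shape of the embryo. The signal of dpy-17 was 262 and 119 CPM in mutant replicates 3 and 4, against 475 and 557 CPM in wild-type replicates 3 and 4. The signal of sqt-3 was 262 and 99.3 CPM in the mutant libraries, against 486 and 552 CPM in the wild-type libraries. For both genes each mutant library lay below each wild-type library, and mutant replicate 4 was the lowest of all.

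The mean of dpy-17 was 190.5 ± 100.5 CPM in the mutant and 516 ± 57.8 CPM in wild type (SD, n = 2 each), a ratio of 0.369. Its change on the log2(CPM + 1) scale, mutant minus wild type, was -1.54 (SE 0.30, 95% interval -2.25 to -0.82; limma, adjusted p = 0.0227). The mean of sqt-3 was 181 ± 115.4 CPM in the mutant and 519 ± 46.8 CPM in wild type, a ratio of 0.349. Its change was -1.67 (SE 0.37, 95% interval -2.54 to -0.81; limma, adjusted p = 0.0288). In these whole animals, a smaller share of epidermal RNA in the total and less collagen RNA per epidermal cell cannot be told apart.

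Both changes stayed negative with any 1 library left out, but their size followed the mutant libraries. With a mutant library left out, the wild-type pair alone gives the spread. The wider spread between the mutant libraries then drops out. Passing in such a fit, here or below, is therefore no check of a call. Without mutant replicate 3 the changes were -2.10 for dpy-17 and -2.37 for sqt-3, and without mutant replicate 4 they were -0.97 and -0.98. On the recovered reads edgeR's quasi-likelihood test called dpy-17 (log2 change -1.44, adjusted p = 0.0391) and missed sqt-3 (-1.52, adjusted p = 0.051), with 7.04% of all genes called lower, and DESeq2 called neither (adjusted p = 0.0653 and 0.117), with 8.15% of all genes called lower.

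These transcripts kept close to each other from library to library. The ratio of dpy-17 to sqt-3 CPM was 0.997 and 1.20 in mutant replicates 3 and 4, against 0.979 and 1.01 in wild-type replicates 3 and 4. The ratio lay farthest from 1 in mutant replicate 4, with 1845 reads of dpy-17 and 1533 of sqt-3. Together they made up 93.9% and 86.6% of the summed signal of the 10 genes in the mutant libraries, against 96.0% and 94.4% in the wild-type libraries. The whole sum was 558 and 253 CPM in the mutant, against 1001 and 1174 CPM in wild type. The other 8 genes added up to 34.3 and 33.8 CPM in the mutant, against 40.5 and 65.4 CPM in wild type, and each stayed below 15 CPM in every library.

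**Figure D1:**
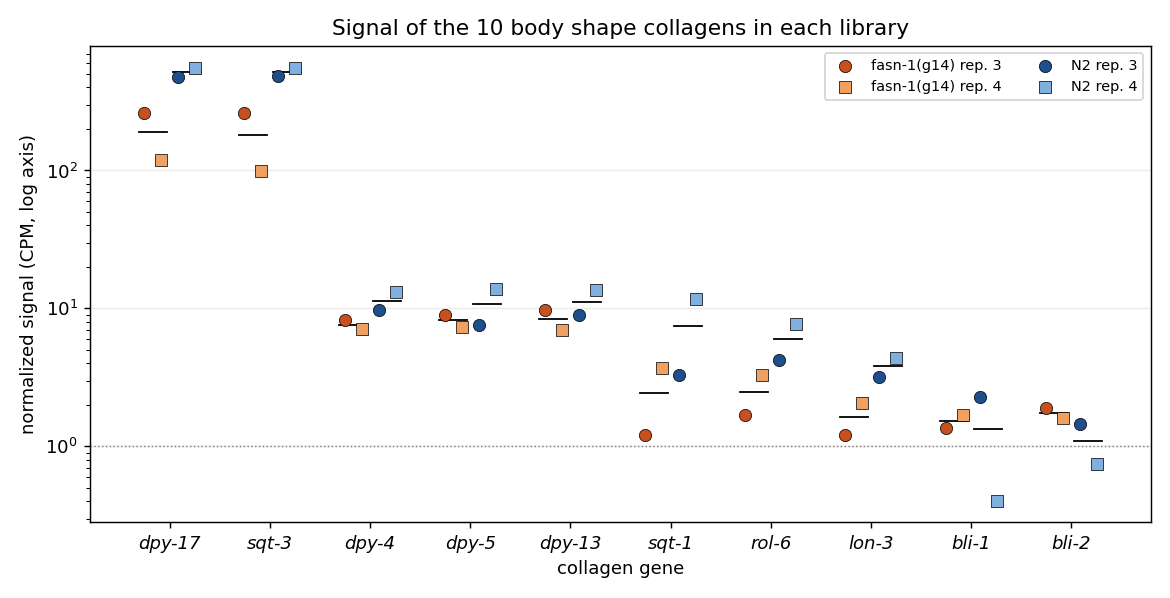
Normalized signal in CPM (log axis) of the 10 collagens, with 1 point per library, mutant left of wild type, and a bar at each group mean (n = 2). The genes dpy-17 and sqt-3 sit between 99.3 and 557 CPM with both mutant libraries below both wild-type libraries, and the other 8 sit below 15 CPM.

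The remaining Dpy collagens, dpy-4, dpy-5 and dpy-13, had nearly the same modest level and did not pass the test. DPY-5 and DPY-13 are collagens of the annuli. The signal of dpy-4 was 8.18 and 7.06 CPM in mutant replicates 3 and 4, against 9.68 and 13.1 CPM in wild-type replicates 3 and 4, so that the groups did not overlap (log2 change -0.51, SE 0.22; limma, adjusted p = 0.156). The signal of dpy-5 was 8.99 and 7.38 CPM in the mutant, against 7.54 and 13.8 CPM in wild type (-0.30, SE 0.29; adjusted p = 0.512). For dpy-13 it was 9.73 and 6.99 CPM in the mutant, against 8.92 and 13.5 CPM in wild type (-0.37, SE 0.26; adjusted p = 0.359). For these last genes the groups overlapped, and wild-type replicate 4 alone stood above the other 3 libraries. With wild-type replicate 4 left out, the changes were -0.31 for dpy-4, 0.10 for dpy-5 and -0.10 for dpy-13. With mutant replicate 3 left out, dpy-4 and dpy-13 passed at -0.61 and -0.59 (limma, adjusted p = 0.0208 and 0.0298), in a fit that called 25.2% of all genes lower.

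The roller and long-body collagens sqt-1, rol-6 and lon-3 were lower still, and none of them passed. SQT-1 and ROL-6 interact genetically and shape the helical twist of the body, and the amount of LON-3 sets body length. The signal of sqt-1 was 1.22 and 3.69 CPM in mutant replicates 3 and 4, against 3.27 and 11.7 CPM in wild-type replicates 3 and 4, which is 18 and 57 reads against 52 and 174 reads. The wild-type libraries of sqt-1 differed 3.59-fold from each other, the groups overlapped, and the change was -1.19 (SE 0.55; limma, adjusted p = 0.175).

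The signal of rol-6 was 1.69 and 3.30 CPM in the mutant, against 4.21 and 7.76 CPM in wild type, a change of -0.99 (SE 0.35, 95% interval -1.80 to -0.18; limma, adjusted p = 0.0939). The signal of lon-3 was 1.22 and 2.07 CPM in the mutant, against 3.20 and 4.38 CPM in wild type, a change of -0.87 (SE 0.28, 95% interval -1.52 to -0.21; limma, adjusted p = 0.0758). For both genes each mutant library lay below each wild-type library. In all of sqt-1, rol-6 and lon-3 it was mutant replicate 3 that was lowest, the opposite order of the mutant libraries to that of dpy-17 and sqt-3. Without mutant replicate 4 these genes passed, at -1.73, -1.33 and -1.10 (limma, adjusted p = 4.45e-04, 8.73e-04 and 0.00515), in a fit that called 14% of all genes lower. Without wild-type replicate 3 sqt-1 alone of them passed, at -1.98 (adjusted p = 0.0403), with 3.43% of all genes called lower.

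The strut collagens bli-1 and bli-2, which are known from the adult cuticle, had the lowest signals for their length in wild type and were the 2 members with positive changes. The signal of bli-1 was 1.35 and 1.68 CPM in mutant replicates 3 and 4, against 2.26 and 0.405 CPM in wild-type replicates 3 and 4. Its reads numbered 20 and 26 in the mutant and 36 and 6 in wild type, and the 6 reads carry an exact 95% Poisson interval of 2.2 to 13.1, which covers counting error only. The wild-type libraries thus lay on either side of the mutant ones, with a change of 0.23 (SE 0.39; limma, adjusted p = 0.723) that turned to -0.38 without wild-type replicate 4. The signal of bli-2 was 1.89 and 1.62 CPM in the mutant, against 1.45 and 0.742 CPM in wild type. Both mutant libraries of bli-2 lay above both wild-type libraries, with a change of 0.42 (SE 0.27; limma, adjusted p = 0.322).

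**Figure D2:**
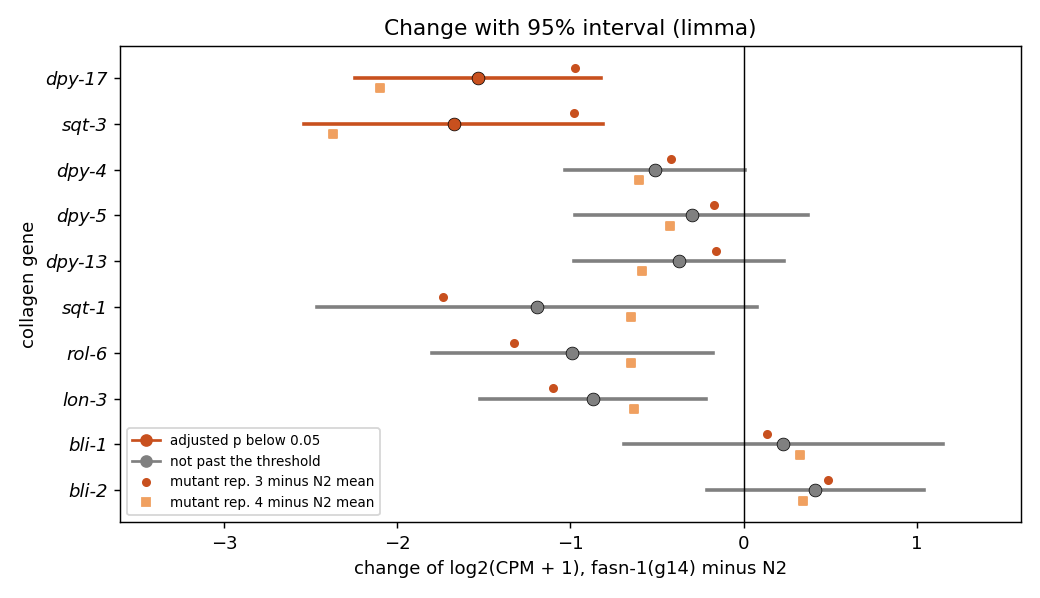
Change of log2(CPM + 1), mutant minus wild type, for each collagen with its 95% interval from limma (large points and lines), and each mutant library minus the wild-type mean (small points). Mutant replicate 4 is the lower one for dpy-17 and sqt-3, at -2.10 and -2.37, and mutant replicate 3 is the lower one for sqt-1, rol-6 and lon-3.

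Across the set, 2 of 10 collagens were called lower (limma, adjusted p below 0.05), where 10.7% of all 12977 genes tested were called lower, and 0 of 10 were called higher, where 4.41% of all genes were. By an unadjusted p below 0.05, 4 were lower and 0 higher, against 20.6% and 12.3% of all genes, and 0 were called higher by edgeR or DESeq2, which called 3.38% and 3.91% of all genes higher. In the smallest list of calls, that without wild-type replicate 4, the fit called 1.38% of all genes lower, and dpy-17 and sqt-3 were among them. Of the other processing choices, a mean of at least 5 CPM lost sqt-3 (5.55% of genes called lower), and a fit without the mean-variance trend lost both (4.2% called lower). All 10 passed the filter on low values. The groups did not overlap for 5 collagens that were lower in the mutant (dpy-4, dpy-17, sqt-3, rol-6 and lon-3) and for 1 that was higher (bli-2), where 32.9% and 31.2% of all genes were so placed. With only 10 genes, these counts lie near the shares of all genes and do not set the collagens apart. The median change of the 10 was -0.69, beside 0.00187 over all genes tested. In wild-type replicate 4, 8 of the 10 were above wild-type replicate 3, as were 55.3% of all genes tested.

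Per kilobase of exon the members spanned a wide range, in the same broad order in both groups. In the mutant dpy-17 led with a mean of 171 CPM per kilobase, followed by sqt-3 with 127, dpy-5 with 9.57, dpy-13 with 8.46, dpy-4 with 7.59, sqt-1 with 2.35, rol-6 with 2.29, bli-2 with 1.77, lon-3 with 1.46 and bli-1 with 0.504. In wild type the means were 464 for dpy-17, 365 for sqt-3, 12.5 for dpy-5, 11.3 for each of dpy-4 and dpy-13, 7.19 for sqt-1, 5.49 for rol-6, 3.37 for lon-3, 1.1 for bli-2 and 0.443 for bli-1. Going down the order in wild type, the library ranges were separate between dpy-17 and sqt-3, between sqt-3 and dpy-5, and between lon-3 and bli-2, and all other neighbours overlapped. In the mutant they were separate between sqt-3 and dpy-5, between dpy-4 and sqt-1, and between lon-3 and bli-1. The strut partners were unequal in every library, with bli-1 at 0.236 and 0.343 times the per-kilobase level of bli-2 in the mutant, against 0.517 and 0.18 times in wild type. The ratio of sqt-1 to rol-6 per kilobase was 0.751 and 1.17 in the mutant, against 0.81 and 1.58 in wild type.

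**Figure D3:**
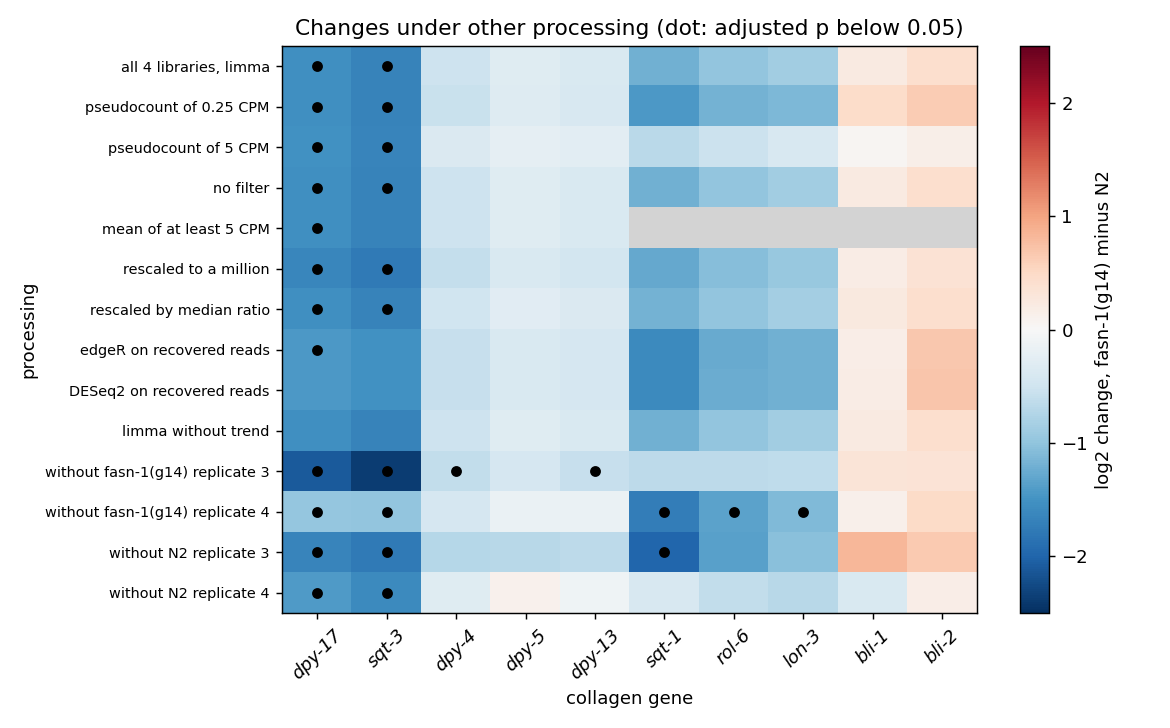
Log2 change (mutant minus wild type, colour) of each collagen under each processing other than replicate blocks, with a dot where the adjusted p was below 0.05 and grey where the gene was filtered out. The columns of dpy-17 and sqt-3 stay blue in every row, whereas dots for sqt-1, rol-6 and lon-3 appear only where a library was left out.

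The furrow collagens moved more evenly. Of these 6 genes, whose products form the furrow bands, 5 fell in the mutant and 1, dpy-8, did not pass (limma), with a median change of -1.46. Over all genes tested, 10.7% were called lower. For dpy-10 the signal was 48.0 and 26.0 CPM in mutant replicates 3 and 4, against 76.0 and 91.2 CPM in wild-type replicates 3 and 4, and for dpy-7 it was 39.6 and 17.8 CPM in the mutant, against 63.1 and 78.5 CPM in wild type. In dpy-2, dpy-3, dpy-7 and dpy-10 mutant replicate 4 was the lower one, as in dpy-17 and sqt-3, and in dpy-8 and dpy-9 mutant replicate 3 was, as in sqt-1, rol-6 and lon-3. The calls of the furrow genes were lost without wild-type replicate 4. The change of dpy-10 was -1.64 without mutant replicate 3, -0.78 without mutant replicate 4 and -1.34 without wild-type replicate 3. The difference between the furrow collagens and the 10 genes was not tested.

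Among 5 further collagens with a shape or blister name, dpy-14 fell and bli-6 rose, where limma called 10.7% of all genes lower and 4.41% higher. The signal of dpy-14 was 233 and 102 CPM in the mutant, against 371 and 437 CPM in wild type, a change of -1.38 (SE 0.32; limma, adjusted p = 0.032). The signal of bli-6 was 10.6 and 12.04 CPM in the mutant, against 3.77 and 4.32 CPM in wild type, a change of 1.29 (SE 0.22; limma, adjusted p = 0.015). The roller collagens rol-8 and sqt-2 had changes of -1.22 and -0.94 and did not pass (adjusted p = 0.0728 and 0.0996). The call of dpy-14 was lost without wild-type replicate 4 and by edgeR and DESeq2, and that of bli-6 was lost without either wild-type library. With mutant replicate 3 left out the changes were -0.71 for rol-8 and -0.81 for sqt-2. With mutant replicate 4 left out they were -1.72 for rol-8 and -1.08 for sqt-2. Of 103 tested genes with a col- symbol, 23 rose and 27 fell, with a median change of -0.28. Their summed signal ran the other way, at 15626 and 17364 CPM in the mutant, against 12366 and 11510 CPM in wild type. Whether rises or falls were more numerous depended on the library left out. The rises and falls numbered 21 and 17 by edgeR, which called 3.38% of all genes higher and 7.04% lower. They numbered 24 and 21 by DESeq2, which called 3.91% of all genes higher and 8.15% lower. Rises outnumbered falls by these tools, whereas falls outnumbered rises by limma with all 4 libraries.

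Each member was also set beside the col- gene whose log2(CPM + 1) pattern over the 4 libraries was nearest to its own, by Euclidean distance after centring. The nearest to sqt-3 was col-109 (distance 0.0643), at 12.2 and 4.21 CPM in the mutant, against 24.8 and 27.0 CPM in wild type. The nearest to dpy-17 was col-121 (distance 0.0858), at 18.2 and 7.77 CPM in the mutant, against 33.7 and 36.97 CPM in wild type. Likeness over these 4 libraries fixes the direction of such a neighbour, so its own change is no support for that of the member. The same gene, col-90, was nearest to rol-6 and lon-3, and col-180 was nearest to dpy-5 and dpy-13. For dpy-4 the nearest was col-155, for bli-1 col-7 and for bli-2 col-126. The least close match was that of sqt-1 to col-149, at a distance of 0.636.

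Collagen chains are hydroxylated and folded in the endoplasmic reticulum, and of 10 tested genes of that work 1 fell, where 10.7% of all genes did. It was fkb-3, which encodes a peptidyl-prolyl isomerase, at 22.9 and 18.1 CPM in the mutant, against 29.1 and 34.9 CPM in wild type (change -0.62, SE 0.16; limma, adjusted p = 0.0449). The prolyl 4-hydroxylase gene dpy-18 stood at 52.8 and 35.2 CPM in the mutant, against 51.2 and 69.4 CPM in wild type, and did not pass (adjusted p = 0.171). The thioredoxin-like gene dpy-11 and the isomerase gene fkb-4 did not pass either, at -0.16 and -0.51. The call of fkb-3 was lost without either wild-type library and by edgeR, and DESeq2 called 1 gene of the list. With mutant replicate 3 left out 5 of the 10 fell, dpy-18, fkb-3, fkb-4, pdi-2 and phy-2, in the fit that called 25.2% of all genes lower.

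Of 7 tested genes for cleavage and crosslinking, 2 fell, where 10.7% of all genes did. They were mlt-7, a peroxidase of cuticle crosslinking, at 14.3 and 12.6 CPM in the mutant, against 22.9 and 23.2 CPM in wild type, and doxa-1, which serves the dual oxidase BLI-3, at 4.39 and 2.53 CPM in the mutant, against 8.10 and 8.16 CPM in wild type (limma, adjusted p = 0.0247 and 0.0405). The protease gene dpy-31, whose product cleaves SQT-3, stood at 16.4 and 11.3 CPM in the mutant, against 20.9 and 21.5 CPM in wild type (change -0.60, SE 0.20; adjusted p = 0.0806). The convertase gene bli-4, whose product trims collagens at the amino end, stood at 262 and 281 CPM in the mutant, against 236 and 245 CPM in wild type (change 0.17, SE 0.07; adjusted p = 0.158). The calls of mlt-7 and doxa-1 were lost without either wild-type library. By edgeR 1 of the 7 was called lower, where 7.04% of all genes were. Without mutant replicate 3 the changes were -0.83 for mlt-7, -1.37 for doxa-1, -0.85 for dpy-31 and 0.22 for bli-4.

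Among 15 epidermal transcription factors and timing genes 3 fell, where 10.7% of all genes did: grh-1, lin-14 and lin-42. The Grainyhead factor gene grh-1 stood at 13.2 and 6.28 CPM in the mutant, against 23.4 and 31.1 CPM in wild type (change -1.46, SE 0.31; limma, adjusted p = 0.0263). The heterochronic gene lin-14, which specifies early larval fates, stood at 47.4 and 26.9 CPM in the mutant, against 87.3 and 95.8 CPM in wild type (change -1.33, SE 0.23; adjusted p = 0.0156). The period homolog lin-42 had a change of -0.87, and bed-3 one of -0.75 that did not pass (adjusted p = 0.0427 and 0.0516). With wild-type replicate 4 left out 1 of the 15 fell, with mutant replicate 3 left out 9 did and lin-41 rose, and with mutant replicate 4 left out 5 did.

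In the BMP-like pathway that sets body size, 1 of 10 genes fell, the ligand gene dbl-1, at 5.54 and 4.27 CPM in the mutant, against 10.7 and 10.2 CPM in wild type (change -0.96, SE 0.22; limma, adjusted p = 0.0313), a call lost without either wild-type library. Over all genes tested, 10.7% were called lower. The pathway's target lon-1 had a change of -0.36, its Smad gene sma-4 one of 0.41 and its receptor gene sma-6 one of -0.39, and none of these passed. With mutant replicate 3 left out all 3 did, and sma-9 as well, so that 4 of the 10 genes fell (25.2% of all genes) and 1, sma-4, rose (18.1% of all genes).

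Molting genes were measured because collagens are made in waves with each molt. Falls were called in 5 of 16 genes (limma), where 10.7% of all genes tested were called lower, and the median change was -0.71. Those with the smallest p-values were acn-1, qua-1, ptr-18 and ptr-4, at -1.52, -1.25, -1.32 and -1.70. The patched-related gene ptr-4 stood at 12.9 and 5.18 CPM in the mutant, against 25.2 and 33.6 CPM in wild type, and the hedgehog-related gene qua-1 at 15.8 and 11.9 CPM in the mutant, against 29.7 and 39.3 CPM in wild type. Falls numbered 1 without wild-type replicate 4, 6 with wild-type replicate 3 left out, 12 with mutant replicate 3 left out and 8 with mutant replicate 4 left out, and in each of these last fits nas-37 rose.

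**Figure D4:**
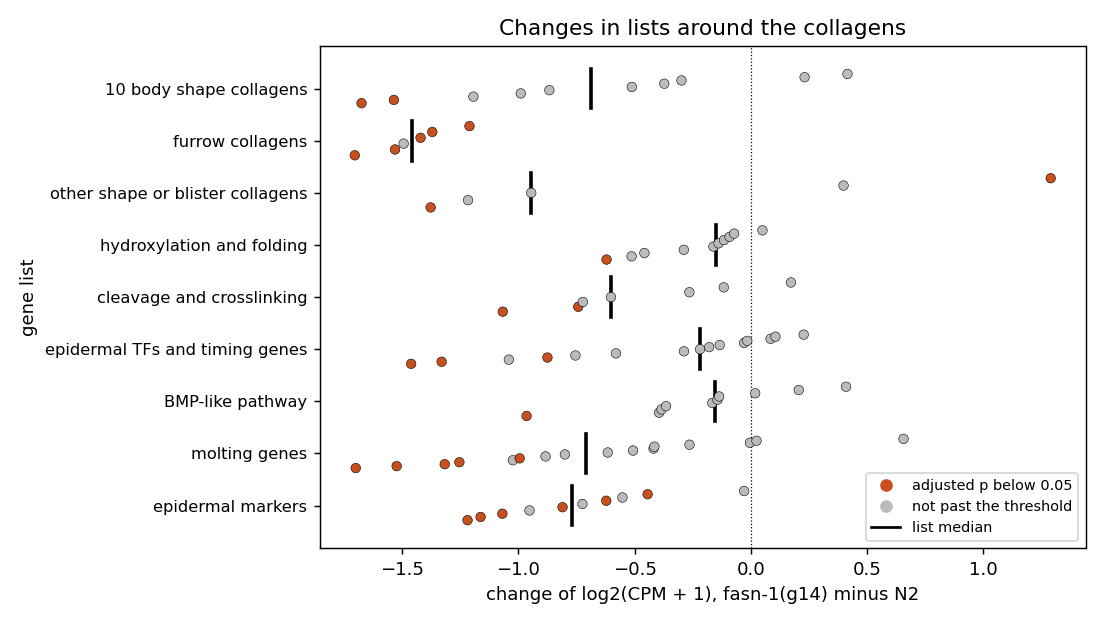
Change of log2(CPM + 1), mutant minus wild type, with 1 point per gene tested, coloured where the adjusted p was below 0.05, and a bar at each list's median. The 10 body shape collagens have a median of -0.69, beside -1.46 for the furrow collagens, -0.71 for molting genes and -0.77 for epidermal markers.

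The epidermis makes all of these collagens, and some of its markers that are not collagens fell in the mutant, as dpy-17 and sqt-3 did. The epidermal factor gene lin-26 did not (change -0.03). The list of markers was chosen with earlier results of these data known. Falls were called in 6 of 10 epidermal markers (limma), where 10.7% of all genes tested were called lower, and the median change was -0.77. Their summed signal was 1118 and 875 CPM in mutant replicates 3 and 4, against 1483 and 1689 CPM in wild-type replicates 3 and 4. The genes with the smallest p-values, the intermediate filament gene ifb-1, pat-12, mup-4 and let-805, belong to the attachment of epidermis to muscle and cuticle, with changes of -1.16, -1.22, -0.62 and -1.07. The epidermal factor gene lin-26 stood at 148 and 142 CPM in the mutant, against 151 and 145 CPM in wild type, and none of the 10 was at 0 in any library. Falls numbered 4 without wild-type replicate 4, 5 with wild-type replicate 3 left out, 9 with mutant replicate 3 left out and 6 with mutant replicate 4 left out.

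Markers of other tissues moved at the same time, in lists chosen with earlier results of these data known. Over all genes tested, limma called 10.7% lower and 4.41% higher. Pharynx markers fell in 6 of 8, with sums of 344 and 163 CPM in the mutant, against 1160 and 1255 CPM in wild type, and neuron markers fell in 6 of 7, with sums of 335 and 289 CPM in the mutant, against 455 and 479 CPM in wild type. Body wall muscle markers fell in 4 of 7, with sums of 2334 and 2261 CPM in the mutant, against 2536 and 2532 CPM in wild type. Intestine markers rose in 2 of 7, with sums of 30192 and 28679 CPM in the mutant, against 18226 and 19909 CPM in wild type, most of it from vit-2. Sperm markers rose in 3 of 5 tested, with sums of 15.7 and 25.8 CPM in the mutant, against 3.08 and 7.02 CPM in wild type. Of 8 oocyte and early embryo markers 0 passed by limma, edgeR or DESeq2 or by an unadjusted p below 0.05, with sums of 5487 and 7017 CPM in the mutant, against 5420 and 5043 CPM in wild type. Fewer neuron, intestine and sperm markers passed with either wild-type library left out, as was so over all genes. With mutant replicate 3 left out, 3 intestine markers rose and asp-1 fell, and 5 sperm markers and 5 oocyte and early embryo markers rose, in the fit that called 18.1% of all genes higher. By edgeR 1 sperm marker rose. The part of tissue proportions, of embryos in the animals or of developmental timing in the fall of dpy-17 and sqt-3 was not tested.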

How the data were processed

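Whole animals were profiled by mRNA sequencing, with 2 libraries of fasn-1(g14) and 2 of N2. Per the labels' protocols, each library started from 1 µg of RNA and took 8 cycles of PCR with a NEBNext Ultra II kit. The deposited table holds a normalized signal for each gene and library, which the authors named CPM. The submitters' processing notes list Bowtie2 (2.3.3.1), HTSeq (0.12.4) and also edgeR (3.28.1). Their roles, the genome build and the row filter were not given in the sources used here. Another 8 columns of libraries, from samples outside these groups, were left out. Every positive value was a whole multiple of its column's step within 0.001 read (100% of values in each library), which gave the reads.

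Of 13758 rows, 13747 matched 1 gene in Ensembl release 115 (WBcel235), 8 matched none and 3 were ambiguous. Whether this is the authors' build is not known. A gene was kept if 2 or more libraries reached 1 CPM (12977 genes). limma 3.58.1 in R 4.3.3 modelled log2(CPM + 1) by group with a mean-variance trend, two-sided, and Benjamini-Hochberg adjustment covered all genes tested, at a threshold of 0.05. The +1 understates changes of low genes. Alternatives were pseudocounts of 0.25 and 5 CPM, no filter or a mean of at least 5 CPM, 2 rescalings, edgeR 4.0.16 and DESeq2 1.42.0 on recovered reads, no trend, a replicate block and each library left out. With 1 library in a group, that library was assumed to vary like the other pair. The fits were run on simulated counts with known changes and the same spread in both groups. The real libraries spread unequally, so that run is no check of the calls made here.

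Members and lists were chosen with earlier results of these data known. The text names all 10 members, their nearest col- genes, fasn-1 and, per list, up to 4 genes of smallest p with a mean of 1 CPM or more. Genes surrounding a member, dpy-8, dpy-9, lin-26, vit-2 and, for fits without a mutant library, pdi-2, phy-2, sma-9, lin-41, nas-37 and asp-1 were added after their values were seen. Counting intervals cover counting error only, as reads without molecular identifiers are not independent molecules.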

Additional observations from a re-analysis of the deposited data

How the results depend on the processing

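Over 15 alternatives, 129 of 145 pairs of member and alternative kept the direction and the side of the threshold, 8 passed it only under the alternative, 6 lost a call and 2 changed sign. The 6 lost calls were 4 of sqt-3 and 2 of dpy-17, the members called, with 15 alternatives for each. The sign changes, neither of a called gene, were both without wild-type replicate 4: dpy-5 ran from -0.70 to 0.10 and bli-1 from -0.38 to 0.84 as each library was left out. Against 2 members called lower, the count was 1 with a mean of at least 5 CPM, 1 by edgeR, 0 by DESeq2, 0 without the trend, and 2 to 5 with a library left out; it was 0 for members called higher in each. The cause was not tested. Over all genes, against 572 higher and 1386 lower, the counts were 288 and 509 with a mean of at least 5 CPM, 361 higher after rescaling to equal column sums, 913 lower by edgeR and 172 and 545 without the trend. With a library left out they ran from 151 to 2346 higher and from 179 to 3268 lower. Rescaling to equal column sums moved the median change of all genes to -0.0894. With the replicate number as a block, 4 members (dpy-17, sqt-3, sqt-1 and rol-6) passed as lower, and 626 genes were higher and 1872 lower; nothing in the labels says that the numbers pair the libraries, and the deviations of same-numbered libraries correlated at -0.21. A crossed replicate block, chosen after seeing the data, gave 1197 higher, 2310 lower and 2 members lower. Depth limits the bli-1 and bli-2 values, which rest on 6 to 36 and 11 to 28 reads.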
